A study of Mus musculus with 2 samples.

Results

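Tetraspanins are small membrane proteins that cross the lipid bilayer several times and gather integrins, immunoglobulin-type receptors and proteases into shared patches of the cell surface and of endosomes. In T cells they are known for work at the immune synapse, in adhesion and migration, and in setting the threshold of receptor signalling, and on endosomes for the making of extracellular vesicles. Here the whole tetraspanin gene family was followed in helper T cells. Its members were taken by name, as every gene whose symbol is Tspan plus a number together with Cd9, Cd37, Cd53, Cd63, Cd81, Cd82, Cd151, Upk1a, Upk1b, Prph2 and Rom1. This gave 31 genes of the mouse RefSeq table, out of 18434 genes named on the array, and 30 of them were read by 40 probes. Rom1 was not analysed here, because no probe carried its accession.

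The RNA came from splenic CD4 T cells of wild type C57BL/6 mice, purified magnetically to over 98%, stimulated through the T cell receptor and CD28 for 2 days and kept for 3 days more. Both cultures held TGF-beta at 3 ng/ml. The Th9 culture, a mixture that favours IL-9 production, received 10 ng/ml of IL-4 together with 1 µg/ml of antibody that blocks IFN-gamma. For Th9+IFNgamma the labels give 3 ng/ml of IL-4 with 10 ng/ml of IFN-gamma, and no antibody is named for it. The cultures thus differ in 3 agents whose parts in a difference cannot be told apart, and the labels do not say how many mice stand behind a culture.

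Each condition was measured on 1 single-colour Agilent array, so that no value below has a replicate, no test was possible, and differences are given by size. A signal is the background-subtracted brightness of a gene's probe once each array had been rescaled so that its 75th percentile equals 598.6. It compares 1 gene between the arrays and gives no order among different genes, so the summed signals given for lists of cell type markers follow their brightest probes. A difference is log2 of the Th9+IFNgamma signal minus log2 of the Th9 signal, and genes at least 2-fold apart are counted as higher or lower in Th9+IFNgamma. A gene counts as measured where the scanner software flagged a probe as well above background in both cultures, which held for 60.6% of probes in Th9+IFNgamma and 59.9% in Th9, and saturation was flagged nowhere. For the measured tetraspanins the software's own error of the log2 difference was 0.20 to 0.30. Over 144 repeatedly printed probes of the array, not chosen by family, spots of the same probe scattered with an SD of 0.12. That SD was 0.23 below a signal of 64 and 0.05 above 1024. Neither the software's error nor the scatter of spots covers variation between mice, cultures or labelling reactions.

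The cells carried the T cell markers on both arrays. All 10 genes of the T cell list were measured on both, with a median log2 difference of 0.20. Cd4 itself read 502 in Th9+IFNgamma and 444 in Th9. Cd247, the zeta chain of the receptor complex, was 2.13-fold higher by its brightest probe. Its 3 probes gave log2 differences of 1.09, 0.99 and 0.19. Cd8a also lay above background, at 1338 and 1074. Of 7 B cell markers 5 were measured on both arrays, with summed signals of 997 and 1527, of which Cd79b made up 844 and 1187, and a median of -0.66. Among them Blnk was 3.13-fold lower in Th9+IFNgamma, and Pax5 was not well above background in either. Of 6 myeloid markers with a probe 3 were measured on both, with summed signals of 86.3 and 241, of which Adgre1 read 25.8 and 186, while Lyz2 and Itgam were not well above background. Of 5 platelet markers 2 were measured, with summed signals of 39.9 and 52.5, while Pf4, Ppbp and Gp9 were not well above background. The only measured erythroid marker of 3, Klf1, summed to 87.1 and 30.1, and the only measured mast cell and basophil marker of 4, Fcer1a, to 59.2 and 26.7. Of 3 NK cell markers 2 were measured, with Klrd1 at 5215 and 4331 and Ncr1 not well above background. Of 5 dendritic cell markers 3 were measured, with summed signals of 142 and 156. None of these 3 was higher, beside 5.15% of all genes measured, or lower, beside 7.42%. Of 4 stroma and endothelium markers 2 were measured, Pecam1 being 2.66-fold higher and Col1a2 2.19-fold lower. The part of such cells in the tetraspanin values was not tested. In RNA from a whole culture, fewer cells of a type and less RNA per cell cannot be told apart.

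Of the 30 tetraspanins with a probe, 21 (70.0%) were well above background, the same 21 on both arrays, beside 66.6% of all named genes. Among these 21, 10 were lower by the 2-fold limit (47.6%), beside 7.42% of the 12272 genes measured on both arrays. On the higher side were 2 of the 21 (9.52%), beside 5.15%, and 9 lay within the limit. The 10 lower genes were Tspan6, Cd63, Cd81, Tspan17, Tspan4, Tspan5, Tspan33, Tspan13, Tspan3 and Upk1a, and the 2 higher ones were Cd9 and Tspan7. The median log2 difference of the 21 was -0.95 against -0.01 over all genes, while 12 of the 21 had a negative difference, beside 50.4% of all genes. The family was chosen by its differences between these same arrays, on the scaled signals reported here, so these shares are a description and nothing is read from them. When the arrays were scaled to their medians instead, which moved the median of all genes to 0.11, 6 tetraspanins were lower, beside 6.32% of all genes, and 3 higher, beside 6.29%.

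**Figure D1:**
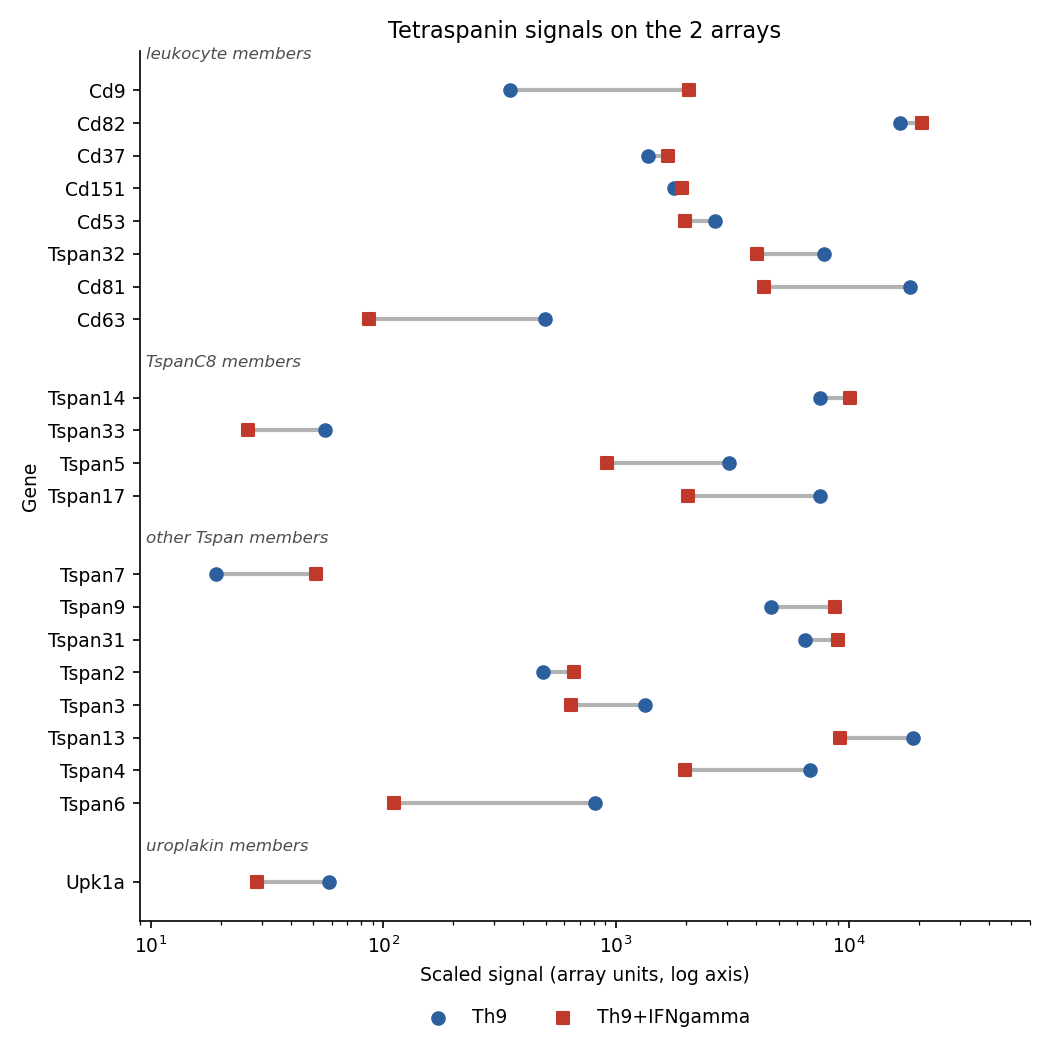
Scaled signal of each of the 21 tetraspanins measured on both arrays, on a log axis, with 1 value per condition and no error bar because each condition is 1 array. Circles stand for Th9 and squares for Th9+IFNgamma. Cd9 and Tspan7 have the square well to the right of the circle, and Tspan6, Cd63 and Cd81 have it furthest to the left.

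Among the tetraspanins of leukocytes, Cd9 was higher by the 2-fold limit and Cd63 and Cd81 were lower, while Tspan32 lay just inside it. Cd9, which encodes a partner of integrins in adhesion, migration and membrane fusion, read 2056 in Th9+IFNgamma and 351 in Th9. It was 5.86-fold higher in Th9+IFNgamma, a log2 difference of 2.55 with a software error of 0.20, and ranked 86 from the highest of all genes measured. Cd81, which encodes a costimulatory tetraspanin of T cells, read 4320 in Th9+IFNgamma and 18422 in Th9. Its log2 difference was -2.09, or 4.26-fold lower. Cd9 and Cd81 proteins share partners such as the immunoglobulin proteins encoded by Igsf8 and Ptgfrn, yet their transcripts lay apart in opposite directions in these cultures. Cd63, whose product marks late endosomes, lysosomes and exosomes, read 87.1 in Th9+IFNgamma against 494 in Th9. That was 5.68-fold lower, and with normexp, a model-based background correction, the log2 difference was -1.83 in place of -2.50.

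The promoters of Cd9 and Cd81, the members with large differences in opposite directions at bright signals, are shown from RefSeq (GRCm38.p6), from 250 bases before the start of transcription to 50 after. The stretch for Cd9 is chr6:125494711-125495010 on the minus strand and that for Cd81 is chr7:143052500-143052799 on the plus strand. They are in lower case throughout because none of the 3 motifs reported, which are given with the promoter of Tspan3, occurred in them.
Cd9: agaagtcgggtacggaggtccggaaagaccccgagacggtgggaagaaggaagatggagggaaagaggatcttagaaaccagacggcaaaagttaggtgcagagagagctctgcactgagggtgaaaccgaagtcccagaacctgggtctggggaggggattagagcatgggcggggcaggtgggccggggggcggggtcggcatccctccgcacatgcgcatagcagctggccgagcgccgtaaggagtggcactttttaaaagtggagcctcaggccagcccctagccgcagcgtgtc
Cd81: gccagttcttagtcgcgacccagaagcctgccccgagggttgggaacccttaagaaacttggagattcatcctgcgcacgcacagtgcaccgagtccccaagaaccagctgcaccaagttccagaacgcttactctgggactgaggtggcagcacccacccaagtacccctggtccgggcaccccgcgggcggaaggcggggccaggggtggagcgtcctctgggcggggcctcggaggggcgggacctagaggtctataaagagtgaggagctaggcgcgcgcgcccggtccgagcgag

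Tspan32, a tetraspanin of blood cells that restrains T cell proliferation, lay just inside the 2-fold limit. Its brighter probe read 4041 in Th9+IFNgamma and 7827 in Th9, a log2 difference of -0.95, and its second probe gave 2368 and 4715, a difference of -0.99. With quantile normalization and with loess on intensity it passed 2-fold. Tspan32 and Cd81 are next to each other on chromosome 7 in the GRCm38.p6 annotation, with no protein-coding gene between them. Both differences were negative, with Tspan32 inside the 2-fold limit and Cd81 past it. The pair Cd151 and Tspan4, separated on the same chromosome by Polr2l alone, did not go together, at 0.12 and -1.78. The other adjacent pairs were Tspan11 with Tspan9 on chromosome 6 and Tspan18 with Cd82 on chromosome 2, and in each the first gene was not well above background.

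The remaining leukocyte tetraspanins differed little between the cultures. Cd37, which encodes a leukocyte-restricted tetraspanin that dampens T cell proliferation, read 1665 in Th9+IFNgamma and 1377 in Th9, and its 2 probes gave log2 differences of 0.27 and 0.26. Cd53, a pan-leukocyte member, read 1980 and 2660, a difference of -0.43. Cd82, named as a suppressor of metastasis, was bright on both arrays at 20697 and 16555, a difference of 0.32. Cd151, whose product binds laminin-receptor integrins, read 1929 and 1781, a difference of 0.12 that is smaller than its software error of 0.20.

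The TspanC8 group comprises Tspan5, Tspan10, Tspan14, Tspan15, Tspan17 and Tspan33, whose products escort the membrane protease ADAM10 to the cell surface and steer its choice of substrates. Of these 6 genes 4 were measured on both arrays, 3 of them lower by the limit, beside 7.42% of all genes measured. Tspan17 read 2028 in Th9+IFNgamma and 7513 in Th9, a log2 difference of -1.89 (3.70-fold lower). Tspan5 read 912 and 3044, a difference of -1.74 (3.34-fold lower). Both kept more than 2-fold in all 10 processing alternatives. Each has 1 probe, however, so the 2 filters and 2 probe rules among these could not alter its value. The deposited table also returned the same values. Tspan33, known from red cell precursors and activated B cells, was dim at 26.1 and 56.3, a difference of -1.11 that stayed past 2-fold in 6 of 9 alternatives. It was -0.59 with normexp and -0.99 with median scaling or quantile normalization, and its second probe was not well above background in either culture.

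Tspan14 was the exception in the group, at 10142 in Th9+IFNgamma and 7507 in Th9, a difference of 0.43. Tspan10 and Tspan15 were not well above background in either culture. The measured part of the group thus consisted of 1 member within 2-fold and 3 lower. Adam10 was not analysed here, because no probe carried its accession. Adam17, which encodes the related sheddase that works with other membrane partners, read 1030 and 941. Of 11 genes for substrates of these proteases, 9 were measured on both arrays. Among the 9, 1 was higher, beside 5.15% of all genes measured, and 2 lower, beside 7.42%. Lag3, an inhibitory receptor shed by both proteases, was 2.54-fold lower and Il6ra, the IL-6 receptor chain, 2.14-fold lower, whereas Icosl, the ligand of ICOS, was 2.38-fold higher. Notch1 read 466 against 467, and Cd44 lay within 2-fold.

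The tetraspanins with less settled roles held the largest difference of the family. Tspan6, reported to restrain antiviral signalling through MAVS, read 111 in Th9+IFNgamma and 814 in Th9, and its second probe 84.7 and 468. The log2 differences were -2.87 and -2.46, and the brighter probe ranked 110 from the lowest of all genes measured. With normexp the difference of the gene was -2.25. Tspan4, whose product marks the migrasomes left behind by moving cells, read 1982 and 6802, a difference of -1.78 (3.43-fold lower).

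Tspan13 and Tspan3 were near the limit. Tspan13, known as NET-6, read 9138 in Th9+IFNgamma and 18968 in Th9, a difference of -1.05. Tspan3 read 642 and 1327 by its brighter probe and 71.1 and 171 by the other, with differences of -1.05 and -1.27. Median scaling brought both genes inside 2-fold, to -0.94 for Tspan13 and -0.93 for Tspan3. Among the measured genes, the members just beyond the 2-fold limit were therefore Upk1a, Tspan3, Tspan13 and, at -1.11, Tspan33. The members just short of it were Tspan32 and Tspan9.

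Of the positive differences, that of Tspan9, a tetraspanin of platelets among other cells, lay just short of 2-fold. Its brighter probe read 8710 in Th9+IFNgamma and 4649 in Th9, a log2 difference of 0.91. Its dimmer probe read 89.1 and 26.0, a difference of 1.78. Both probes had positive differences, and the gene passed 2-fold with normexp, with median scaling and with the mean of its probes. Tspan7, known from neurons and from T cell leukaemia, was higher at dim signals of 51.5 and 19.0, a difference of 1.44, which was 0.28 with normexp. Detected probes went down to signals of 11.1 in Th9+IFNgamma and 12.5 in Th9, so Tspan7 lay close to the floor in Th9.

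Tspan31, which is amplified in sarcomas, read 8995 and 6471, a difference of 0.48. Tspan2, known from oligodendrocytes, was the only measured member whose probes disagreed in sign. Its brighter probe read 663 in Th9+IFNgamma and 483 in Th9 (a difference of 0.46), and its dim probe 20.0 and 35.9 (a difference of -0.84). Of the 7 measured members with several detected probes, 6 had probes of 1 sign and 5 had all probes on the same side of 2-fold.

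**Figure D2:**
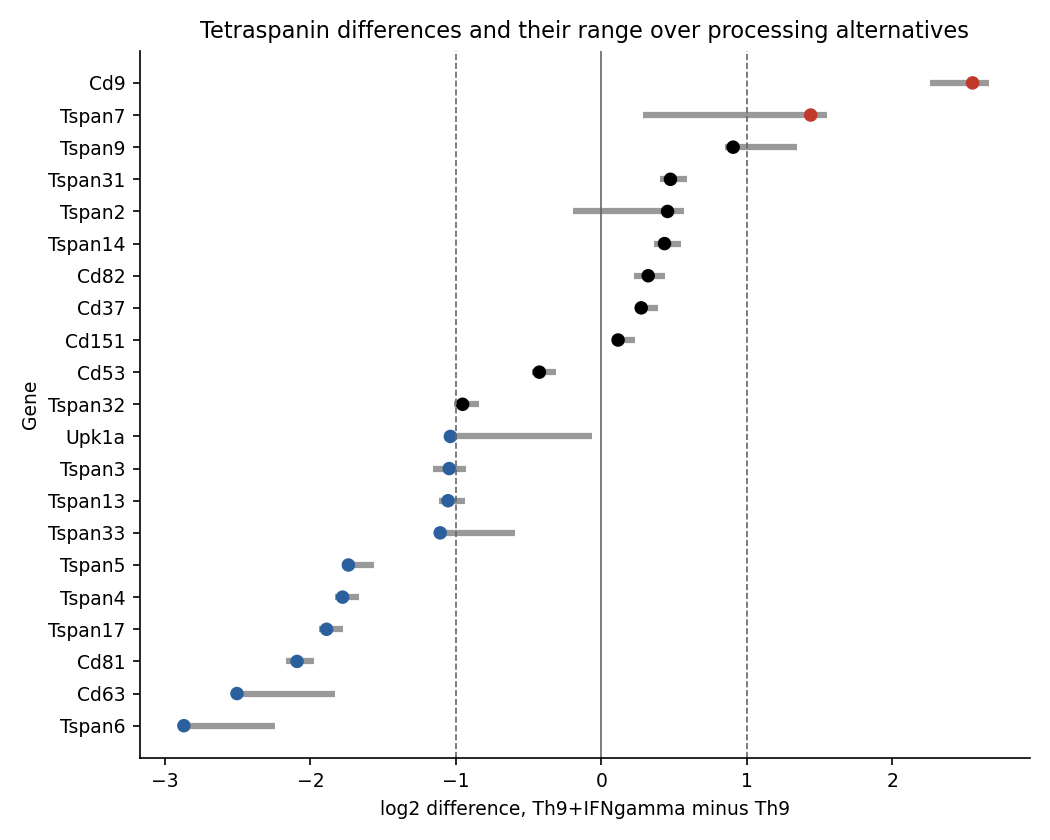
log2 difference (Th9+IFNgamma minus Th9) of the 21 measured tetraspanins, ordered by size. Points are the reported values (red at least 2-fold higher, blue at least 2-fold lower, black within 2-fold), grey bars run from the lowest to the highest value over the processing alternatives that measured the gene, and dashed lines mark 2-fold. The bars of Cd9, Cd63, Cd81, Tspan4, Tspan5, Tspan6 and Tspan17 stay beyond 2-fold, whereas those of Tspan7, Tspan33 and Upk1a reach far inside it.

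The members known from specialised epithelia and the retina were at or near background. Upk1a, a uroplakin of the bladder lining, gave 28.5 in Th9+IFNgamma and 58.5 in Th9 by 1 probe, a difference of -1.04, and 30.6 against 32.0 by the other, a difference of -0.06. It was therefore counted as lower by 1 of its 2 probes only, and its difference was -0.40 with normexp. Upk1b and the partner genes Upk2, Upk3a and Upk3b were not well above background in either culture. The same held for Prph2, a protein of photoreceptor discs, and for Tspan1, Tspan8, Tspan11, Tspan12 and Tspan18. Tspan12 acts in the Norrin receptor of retinal vessels, whose ligand and receptor genes Ndp and Fzd4 were not well above background either. The 11 probes of the 9 undetected members had scaled signals of 2.28 to 9.74, and no member was detected on 1 array only.

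**Figure D3:**
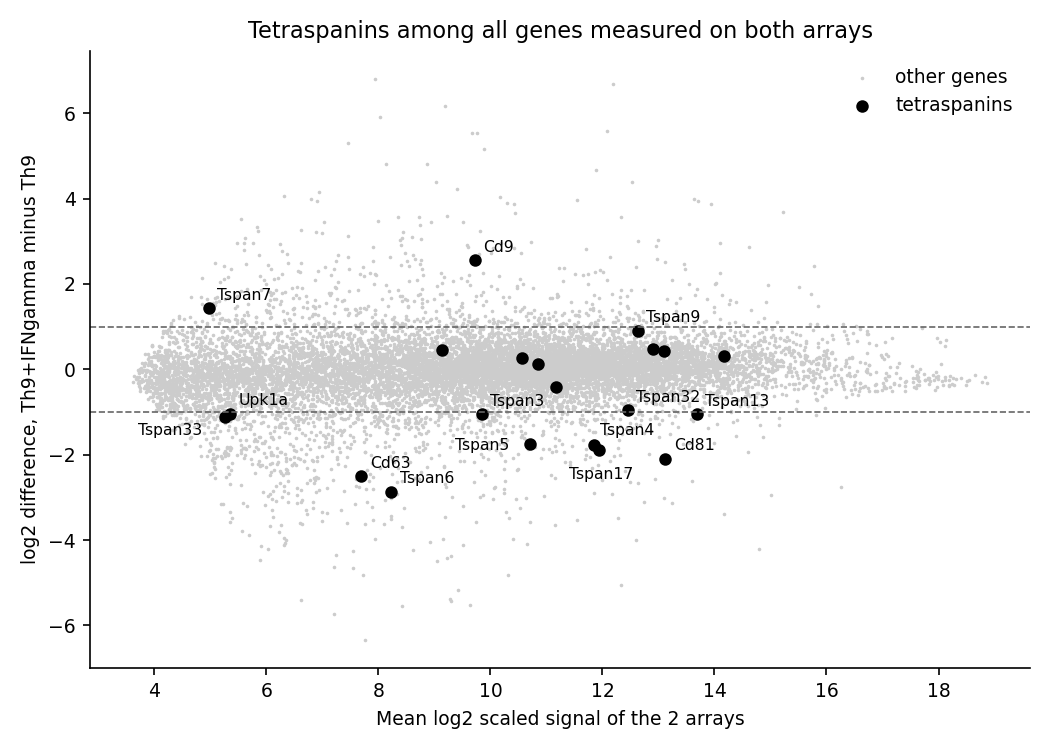
log2 difference (Th9+IFNgamma minus Th9) against the mean log2 scaled signal for the 12272 genes measured on both arrays (grey) and the 21 measured tetraspanins (black), with names where the difference is about 2-fold or more and dashed lines at 2-fold. Tspan33, Upk1a and Tspan7 lie at the dim end, to the left, whereas Cd81, Tspan17 and Tspan4 lie below the lower dashed line at bright signals.

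The size of the differences can be set beside all genes. At least 4-fold lower were 3 tetraspanins, Tspan6, Cd63 and Cd81, beside 2.32% of all genes measured, and 1, Cd9, was at least 4-fold higher, beside 1.31%. Tspan6 lay at percentile 0.896 of all differences, Cd63 at 1.32, Cd81 at 2.02, Tspan17 at 2.66, Tspan4 at 3.03 and Tspan5 at 3.15. Cd9 lay at percentile 99.3. Among 7 genes that kept more than 2-fold in every alternative, Cd9 was the only higher one.

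Tetraspanins act through partners, and the partner genes were read from lists of known associates. Of 8 immunoglobulin-type partners, 1 was lower by the limit, beside 7.42% of all genes measured, and none was higher, beside 5.15%, and the median log2 difference was -0.64. The lower one was Ptgfrn, a direct partner of CD9 and CD81, at 114 in Th9+IFNgamma and 287 in Th9, while its second probe gave a difference of -0.43. Igsf8, the other protein of that kind, read 1887 and 1714. Of 10 integrin genes, 9 were measured on both arrays, with a median of 0.22. Among the 9, 1 was higher, beside 5.15% of all genes measured, and 1 lower, beside 7.42%. Itga6, a laminin-receptor chain bound by CD151 and CD9, was 2.73-fold higher in Th9+IFNgamma (2302 against 843). Itga3, the related chain with the closest bond to CD151, was 3.73-fold lower (46.9 against 175), though its 3 probes gave differences of -2.47, -1.90 and -0.26. Itgb1, the chain that pairs with both, lay within 2-fold, with a difference of 0.40.

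Palmitoyltransferases attach the fatty acids that hold tetraspanins together. None of their 7 genes was higher, beside 5.15% of all genes measured, or lower, beside 7.42%, and their median was 0.22. Of 10 vesicle genes, 9 were measured on both arrays, with a median of -0.22. Among the 9, 1 was lower, beside 7.42% of all genes measured, and none was higher, beside 5.15%. Pdcd6ip, which encodes the exosome factor ALIX, was 2.02-fold lower, and its 4 probes gave -1.32, -1.02, -0.57 and -0.32. Sdcbp, which encodes syntenin, a direct ligand of CD63, read 15532 and 11870, a difference of 0.39 beside the -2.50 of Cd63. The lysosomal genes Lamp1 (-0.52) and Lamp2 (-0.64, with 0.24 by its other probe) lay within 2-fold. Rab27b, a secretory GTPase, was well above background in Th9+IFNgamma and not in Th9, which makes it at least 2.26-fold higher, a bound taken against the dimmest detected probe of Th9 or the probe's own signal there, whichever was higher.

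**Figure D4:**
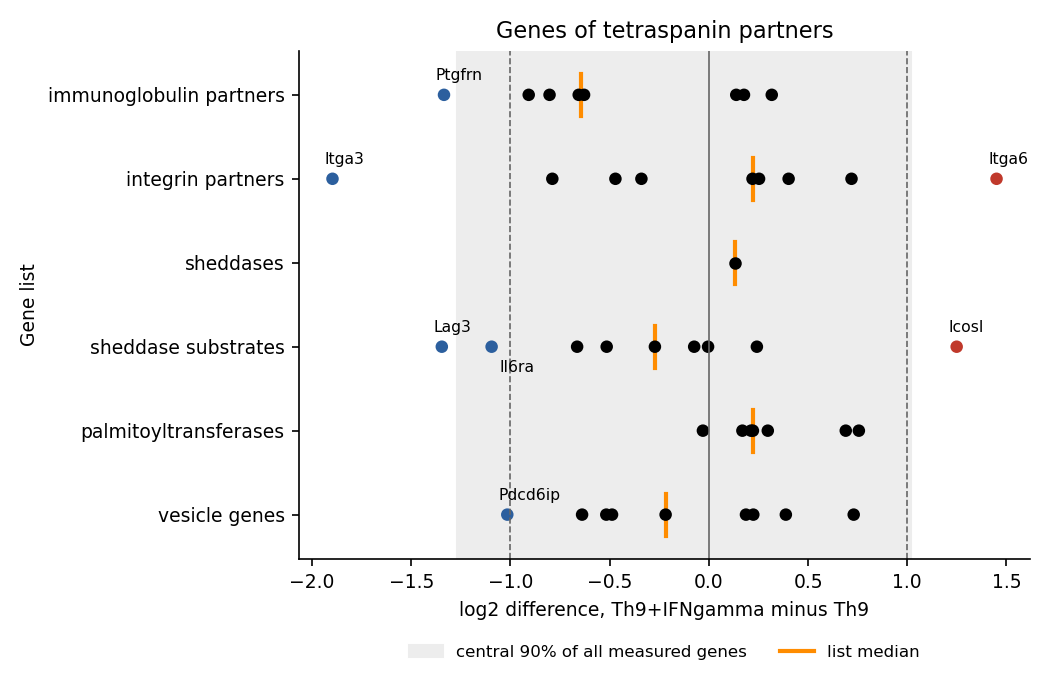
log2 difference (Th9+IFNgamma minus Th9) of the genes of 6 partner lists measured on both arrays, 1 point per gene, with the list median as an orange bar, the central 90% of all measured genes (-1.27 to 1.02) as a grey band and dashed lines at 2-fold. Most partner genes lie inside the band, and Itga3, Ptgfrn, Lag3, Itga6 and Icosl lie outside it.

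The promoters were searched for short elements bound by factors downstream of the cytokines in these cultures, on both strands and from 250 bases before to 50 bases after each start. The STAT6-type element was TTC and GAA with any 4 bases between them. The ISRE-type core was GAAA repeated after any 2 bases, and the Smad element was the palindrome GTCTAGAC. Of the 31 tetraspanins, 29 had promoters in the RefSeq table, 39 in all, and Tspan18 and Upk1b had none there. The STAT6-type element occurred in 2 of the 39 (5.13%), beside 6.95% of 32851 promoters of all genes. The ISRE core occurred in none, beside 3.44%, and the Smad palindrome in none, beside 0.213%. No match overlapped another.

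Among the members 2-fold apart, Tspan3 alone had a match, holding the STAT6-type element at 2 places that begin 231 and 126 bases before its start. Its promoter lies on the minus strand at chr9:56161021-56161320, and capitals mark the matches. Nothing in the arrays shows that these letters are bound.
Tspan3: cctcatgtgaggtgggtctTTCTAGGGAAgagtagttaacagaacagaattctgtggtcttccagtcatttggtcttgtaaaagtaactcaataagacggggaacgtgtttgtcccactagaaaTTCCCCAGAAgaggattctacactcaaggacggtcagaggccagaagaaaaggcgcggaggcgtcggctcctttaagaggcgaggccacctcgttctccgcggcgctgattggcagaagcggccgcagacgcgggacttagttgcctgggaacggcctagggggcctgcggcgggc
The other match was in the promoter of Cd53. The genes with the largest differences, Cd9, Cd63, Cd81, Tspan4, Tspan5, Tspan6 and Tspan17, had no match to any of the 3 in this window.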

How the data were processed

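Each deposited scanner file holds a background-subtracted intensity per spot, written by Feature Extraction 10.7.3.1 according to its header (10.7 in the submitters' processing notes), with no scaling between arrays. A second deposited table holds log2 values; against the scanner values it differed by a constant per array, with column medians of -4.05 and -3.93, and it served as an alternative.

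Spots of a probe were averaged on the log2 scale. Control spots and single spots flagged as outliers were left out, and 3 probes dropped out altogether because of flagged spots. The 75th percentile of an array (631.9 in Th9+IFNgamma, 567.0 in Th9) was taken off its values. Probes were named by unversioned RefSeq accession against GRCm38.p6: of 41171 probes 27050 matched 1 gene and 14121 none. The headers name another build, mm9, so coordinates are given for RefSeq promoters only. Where a gene had several probes detected on both arrays, the brightest stood for it. Alternatives were normexp (limma 3.58.1), 4 scalings, the deposited table, 2 filters and 2 probe rules; normexp used median signals, since mean signals were not in the files used. Calling was tested on simulated data, in which only bright genes were changed and by more than 2-fold. That test does not cover dim genes, genes near the limit or variation between cultures. All tetraspanins are named in the text, and partner genes where 2-fold apart or where a result turns on them. Some list genes and 1 further promoter element are not reported here. Members and lists were chosen with earlier results of these data known.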

Additional observations from a re-analysis of the deposited data

How the results depend on the processing

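Over 10 alternatives to the background correction, scaling, source, filter and probe rule, all 12 tetraspanins at least 2-fold apart kept their sign wherever they were measured, and 7 stayed past 2-fold in each: Cd9, Cd63, Cd81, Tspan4, Tspan5, Tspan6 and Tspan17. Of the 7, all but Tspan6 have 1 probe each, so the 2 filters and 2 probe rules could not alter their differences. The deposited table, a constant per array away from the scanner values, returned the same differences apart from rounding. Median scaling left 6 lower in place of 10. A signal of at least 100, which drops Tspan7, Tspan33 and Upk1a, left 1 higher and 8 lower. Normexp also left 8 lower, and its 2 higher genes were Cd9 and Tspan9. In the remaining alternatives 9 or 10 were lower. The median log2 difference of -0.95 was -0.43 with normexp (chosen after the files were seen), -0.69 with signals of at least 100, -0.185 with no filter on dim probes, where 30 genes enter, -0.55 with the mean of probes and -0.43 with the probe of smallest difference; it was negative in each. The number of arrays limits the precision, and below a signal of 64 repeated spots scattered with an SD of 0.23, against 0.05 above 1024. The flag for positive and significant signal counted 24 members as detected, adding Tspan1, Tspan8 and Tspan18. No paired analysis was possible because each condition has 1 array.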
